A study of Mus musculus with 157 samples.

Results

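The quantity followed here was the heavy-to-monosome ratio of each mRNA, and the question was how it differed between etoposide-treated B cells that had or had not received an inhibitor of the DNA damage kinase ATM. A ribosome that has just started on an mRNA leaves it in the monosome fractions of a sucrose gradient, and mRNAs that carry many ribosomes at once sediment into the heavy polysome fractions, so a higher ratio means that more of the measured mRNA sat under many ribosomes. ATM is activated by DNA double-strand breaks and phosphorylates p53, Chk2, H2AX and many other proteins, and B cells engage it when they cut their own immunoglobulin loci during class switching. Etoposide locks topoisomerase II onto the DNA it has cut, which produces such breaks, and KU55933 blocks the kinase activity of ATM.

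All cells were primary splenic B cells of C57BL/6Babr mice, taken with a B cell isolation kit and activated with lipopolysaccharide (LPS) at 10 µg/ml. The LPS group had 48 h of LPS alone. The LPS+ET group received 48 h of LPS and then etoposide at 20 µM for 4 h. The LPS+ET+KU group received LPS for 47 h, KU55933 at 10 µM for 1 h and then the same etoposide treatment. Every culture was given cycloheximide at 100 µg/ml for 3 min, which holds ribosomes in place, before cytoplasmic extracts were spun and collected as 1 ml fractions. A dose range and inhibitor-only cells were not analysed here, and an effect of KU55933 on targets other than ATM cannot be told apart from ATM inhibition in these groups. The methods of the study give mice of 8 to 12 weeks of age. Whether gradients of different pools came from different animals was not given in the sources used here beyond the statement that replicates were biological, so p-values measure the spread between these gradients.

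Each group had 4 gradients, 1 under each of the column-name tags LUL15, LUL16, LUL17 and LUL18, which are called pools here. The column names do not say what the tag stands for. From each gradient 13 sequenced fractions were used, with fractions 4 to 7 as monosomes, 8 to 10 as light polysomes and 11 to 16 as heavy polysomes. The ratio of a gene in a gradient was the log2 of its mean CPM (counts scaled to a common library total) over fractions 11 to 16 against that over fractions 4 to 7, each with 0.5 CPM added. Genes with at least 1200 counts in total were kept, which left 8000 of the 19600 genes in the table; the lowest member had 1200 counts and the highest gene outside had 1198. Of the 8000, 75 had no monosome count in at least 1 gradient. The comparison of LPS+ET+KU with LPS+ET therefore rested on 8 of 12 gradients and 80 monosome and heavy libraries. Libraries were made from matched RNA amounts of each fraction, so a shift of the whole mRNA pool between monosomes and heavy polysomes cannot be seen in these values, which show how genes moved relative to each other.

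The gradients were not equal in depth. Total counts ran from 6404957 to 21449781, and LPS+ET LUL16 was the shallowest, with 30.4% of its counts in heavy fractions against 60.5% to 68.2% in the other LPS+ET gradients and with 4 of its monosome and heavy libraries under 100000 counts. Monosome fractions held 1397768 to 1857161 counts in the LPS+ET gradients and 2702618 to 6102279 in the LPS+ET+KU gradients, so their depth did not overlap between the groups, and the part of this difference in the results was not tested. In pool LUL16, mitochondrially encoded RNA took 3.45% of monosome counts in LPS+ET and 1.03% with the inhibitor, against 7.57% to 14.2% in the other gradients. B cell markers were present throughout. The 11 B cell markers summed to 1900 to 3390 CPM in LPS+ET and 2400 to 3730 CPM with the inhibitor. The 12 T cell markers summed to 122 to 277 and 123 to 396 CPM, the 17 myeloid markers to 707 to 1050 and 865 to 1260 CPM, most of it Cybb, which B cells express too, and the 6 erythroid markers to 26.7 to 89.2 and 21.3 to 134 CPM, with no marker at 0; their part in the results was not tested.

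The median log2 ratio of all 8000 genes was 0.82, 0.55, 0.98 and 0.92 in the LPS+ET gradients of pools LUL15 to LUL18, and 0.90, 0.66, 1.02 and 0.93 in the LPS+ET+KU gradients. Both groups were lowest in LUL16 and overlapped. Their means were 0.82 ± 0.19 and 0.88 ± 0.15 (SD, n = 4), a difference of 0.06 with a two-sided exact permutation p of 0.571, where 70 splits allow no p below 0.0286. Paired by pool, the difference was positive in 4 of 4 pools, at 0.08, 0.11, 0.04 and 0.01, with an exact sign-flip permutation p of 0.125, the smallest that 4 pairs allow. With libraries scaled by TMM, which trims extreme genes before setting a scale, the same difference was −0.17, and its exact permutation p was 0.343.

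Single genes rarely passed the test. With limma, 0 of 8000 genes (0%) were called at an adjusted p under 0.01, 1 gene (0.0125%) at 0.05 and 587 genes (7.34%) at an unadjusted p under 0.05, of which 359 were higher and 228 lower with the inhibitor. The median standard error of a gene's log2 difference was 0.36, while the quartiles of the differences were −0.24 and 0.32 and 219 genes differed by more than 1. With the pool as a replicate block, 1 gene (0.0125%) was called at 0.01. An interaction test on counts summed over the monosome and heavy fractions called 3 genes in edgeR and 36 in DESeq2, 16 higher and 20 lower. In 284 genes (3.55%) all LPS+ET+KU gradients lay above all LPS+ET gradients, and in 145 (1.81%) all lay below. This lean toward higher ratios depended on the scaling: 66.2% of non-overlapping genes were higher here, but 15.1% with TMM, which put the median difference of all genes at −0.21 in place of 0.02, and 47.2% when each gradient was centred on its own median. The differences of genes and groups below are therefore best read against the median of all genes.

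Mll1 (now Kmt2a), a very large histone H3 lysine 4 methyltransferase, was the gene called at 0.05. Its log2 ratio was 0.62, 0.50, 1.63 and 0.18 in the LPS+ET gradients of LUL15 to LUL18 and 3.18, 2.26, 2.72 and 2.95 in the LPS+ET+KU gradients. The lowest inhibitor-treated gradient thus lay above the highest LPS+ET gradient, and the LPS gradients, at 1.48, 1.37, 2.15 and 1.06, overlapped LPS+ET and lay below those with the inhibitor. The difference was 2.05 ± 0.32 (SE) with an adjusted p of 0.0326, and 0.00623 with the replicate block. Its monosome level was 37.8 ± 25.5 CPM in LPS+ET and 15.6 ± 11.0 CPM with the inhibitor, and its heavy level 68.3 ± 54.5 and 110 ± 71.8 CPM (SD, n = 4). The gene spans positions 44803354 to 44881295 of mouse chromosome 9 (GRCm38), its coding sequence has 11901 bases, and its main counted poly(A) site lies in the UTR. With counts summed over fractions instead of averaged, the difference was 1.19 and was not called.

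The next genes by limma p with non-overlapping higher ratios did not pass the unblocked test. Stk17b, a death-associated protein kinase that restrains lymphocyte signalling (chromosome 1, 53755505 to 53785223), had log2 ratios of −0.32, −0.02, −0.71 and −0.24 in LPS+ET and of 0.80, 1.28, 1.15 and 1.13 with the inhibitor. Every inhibitor-treated gradient was above 0 and every LPS+ET gradient below it. The difference was 1.41 ± 0.27 with an adjusted p of 0.167, 0.0565 with the replicate block over 12 gradients and 0.00423, a call, with the block over the 8 compared gradients. Nfkbiz, which encodes the nuclear IκB protein IκBζ that LPS induces (chromosome 16, 55811374 to 55838898), had ratios of 0.26, 0.89, −0.16 and −0.38 in LPS+ET and 1.24, 2.06, 1.22 and 1.37 with the inhibitor. Its difference of 1.32 ± 0.29 (adjusted p = 0.257) sat in the heavy fractions, which held 68.7 ± 20 CPM in LPS+ET against 155 ± 23.8 CPM (adjusted p = 0.0242, not called), while monosomes held 60.2 ± 6.82 and 56.5 ± 15.8 CPM. The other genes in this set were Helz, a helicase that binds poly(A)-binding protein, at 1.84 ± 0.40; Mll5 (Kmt2e), a chromatin reader, at 1.02 ± 0.23; Pcnt, the centrosomal scaffold pericentrin, at 1.41 ± 0.33; Nup205, a nuclear pore subunit, at 0.92 ± 0.22; Rock1, a kinase of the actin cytoskeleton, at 0.99 ± 0.23; Mkl2, an actin-sensing cofactor of serum response factor, at 1.71 ± 0.41; and the predicted gene Gm5423 at 1.19 ± 0.27. Their adjusted p-values were 0.257 or 0.260, and DESeq2 called Gm5423 (1.33, adjusted p = 2.86e-05). Gm5423 is now named Tmem229b-ps, a pseudogene symbol, and its main counted site lies outside the annotated gene. The pseudogene Gm11826, at 1.32 ± 0.38 (adjusted p = 0.360), was called under the most other settings: 2.45 with summed counts (adjusted p = 0.000376), 2.51 with fractions 11 to 13 as heavy (adjusted p = 0.00445), 2.70 in edgeR (adjusted p = 3.94e-05) and 2.83 in DESeq2 (adjusted p = 6.33e-11). Its ratios were −3.54, −3.05, −3.74 and −4.82 in LPS+ET and −2.01, −2.21, −2.69 and −2.94 with the inhibitor, low in every gradient, and reads of a pseudogene cannot be told apart with certainty from those of its parent. Several of these values were smaller when fraction counts were summed, 0.23 for Rock1, 0.28 for Nup205, 0.51 for Pcnt and 0.71 for Mkl2.

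Among the lower genes, the circadian repressor Per1 (chromosome 11, 69095216 to 69109959) had the smallest p. Its log2 ratio was 3.01, 3.06, 2.56 and 2.41 in the LPS+ET gradients and 1.43, 1.79, 1.29 and 1.41 in the LPS+ET+KU gradients, and the LPS gradients, at 1.40, 1.86, 1.93 and 1.27, overlapped those with the inhibitor. The difference was −1.28 ± 0.25 (adjusted p = 0.179). Per1 was in the mean higher on both sides, by 0.64 in heavy fractions and 1.92 in monosomes on the log2 scale, neither of them called. Fcrla, an intracellular Fc receptor-like protein of B cells (chromosome 1, 170917575 to 170927582), had ratios of 0.93, 1.13, 1.42 and 1.51 against 0.09, −0.41, 0.65 and 0.31. These groups did not overlap, and the difference of −1.09 ± 0.23 had an adjusted p of 0.257, 0.0342 with the replicate block over 12 gradients and 0.00906, a call, with the block over 8. The main counted poly(A) site of Fcrla lies in an annotated intron. The signalling kinase Map3k1 was at −1.08 ± 0.25, the splicing factor Srsf2 at −0.89 ± 0.21, the inositol phosphate synthase Isyna1 at −0.90 ± 0.23, the zinc finger gene Zfp646 at −1.61 ± 0.43 and the long noncoding RNA AC123702.1 (Mirt1) at −1.49 ± 0.35. Def6, a guanine nucleotide exchange factor of lymphocytes, had ratios of 2.13, 1.74, 1.96 and 2.59 in LPS+ET and 1.27, 0.78, 1.52 and 1.1 with the inhibitor. Its difference of −0.94 ± 0.24 (adjusted p = 0.331) sat in heavy fractions, 241 ± 47.5 against 123 ± 23 CPM, with 55.3 ± 9.77 and 54.0 ± 5.21 CPM in monosomes. Def6 was also called in edgeR (−1.33, adjusted p = 0.00756) and DESeq2 (−1.29, adjusted p = 1.04e-06), and DESeq2 called Srsf2 (adjusted p = 0.00596) and Isyna1 (adjusted p = 0.00789). The 2 other genes of this set were the tubulins Tuba1c and Tuba4a, described below.

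**Figure D1:**
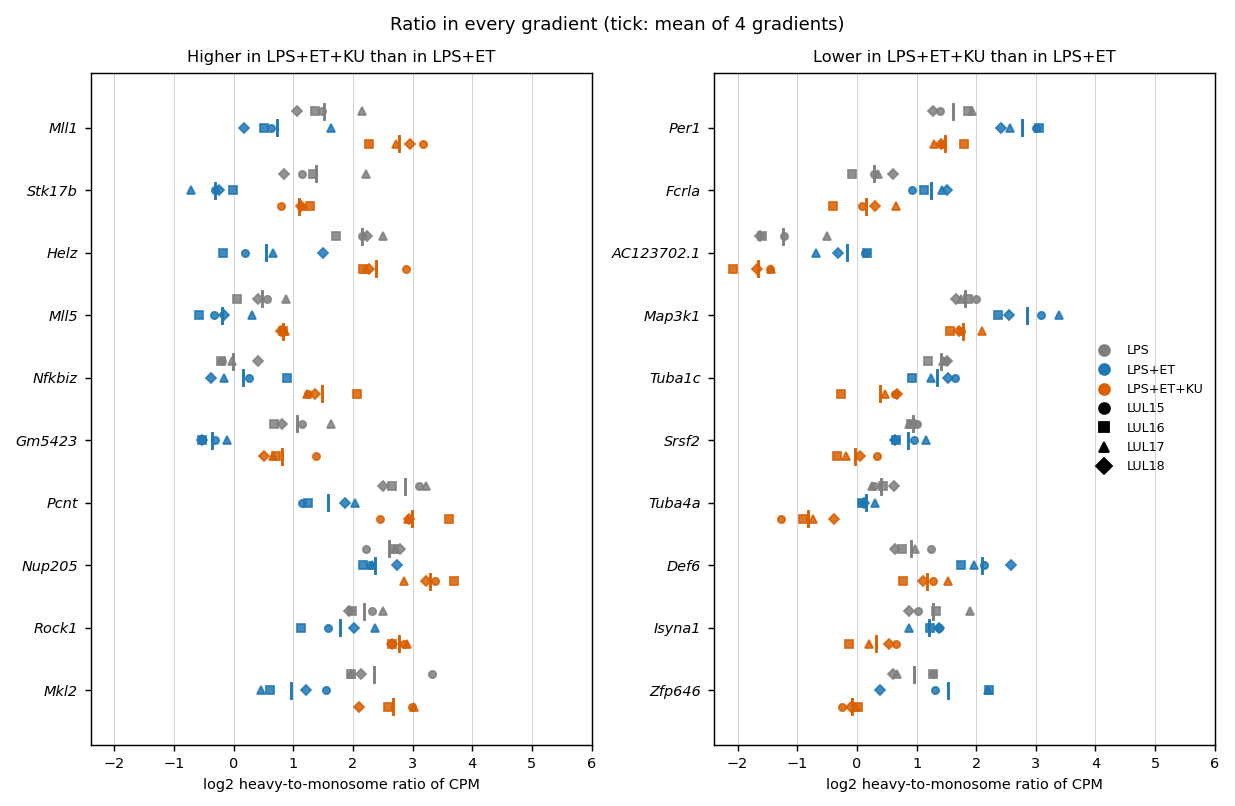
Log2 heavy-to-monosome ratio of CPM (x axis) in every gradient for the 10 higher and 10 lower non-overlapping genes with the smallest limma p. Colours mark LPS, LPS+ET and LPS+ET+KU, symbols the pools and vertical ticks the mean of 4 gradients. All 4 LPS+ET+KU gradients lie on one side of the 4 LPS+ET gradients, as the choice of these genes requires, for example 2.26 to 3.18 against 0.18 to 1.63 for Mll1.

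In most non-overlapping genes the mean heavy level moved with the ratio and the mean monosome level against it. The genes were chosen by that ratio, which partly builds these counts in. Among the 284 higher genes, the heavy level was higher with the inhibitor in 249 and the monosome level lower in 236, with both in 201, and the median differences were 0.35 in heavy fractions and −0.41 in monosomes. The monosome difference was the larger one in 157. Among the 145 lower genes, the heavy level was lower in 103 and the monosome level higher in 128, with medians of −0.23 and 0.50. The light-to-monosome ratio, from fractions 8 to 10, had the same sign in 267 of the 284 and 128 of the 145, which share their monosome values with the heavy-to-monosome ratio. Levels of single genes passed the test in few cases: 16 genes (0.2%) in heavy fractions, 14 higher and 2 lower, 1 gene (0.0125%), Cdh23, in monosomes and 3 genes (0.0375%) in the light-to-monosome ratio. With the replicate block the counts were 150, 46 and 10. The 3 light-ratio calls were Cdh23, Gm4799 and Cox6b1, a subunit of cytochrome c oxidase, at −1.07 with a heavy-to-monosome difference of −0.37 that was not called.

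Of the 16 heavy-fraction calls, the 14 that rose had ratio differences on both sides of 0. Ifit1, an interferon-induced RNA-binding protein, rose by 2.23 ± 0.26 on the log2 scale in heavy fractions and was 2.29 higher in monosomes, so its ratio differed by −0.06 ± 0.26. Rsad2, the antiviral enzyme viperin, rose by 2.28 ± 0.27 with a ratio difference of −0.05 ± 0.52. The costimulatory receptor Cd86, the phosphatase Dusp4 and the ubiquitin ligase Neurl3 rose by 1.68, 1.73 and 2.06 with ratio differences of 0.29, 0.37 and 0.19. In Rgs2, a regulator of G protein signalling, Ifrd1, an interferon-related transcriptional regulator, and Gadd45b, a stress sensor, the rise in heavy fractions of 1.30, 1.71 and 1.16 was larger than the monosome difference, and their non-overlapping ratio differences were 0.72 ± 0.30, 0.89 ± 0.26 and 0.64 ± 0.23, none of them called by limma. DESeq2 called Ifrd1 (1.03, adjusted p = 0.00548). The 2 mRNAs that fell, Serpinf1, a secreted serpin, and Cdh23, a cadherin, had heavy-level differences of −2.52 and −4.38 and ratio differences of −1.43 ± 0.51 without overlap and 2.01 ± 0.74. The heavy-fraction count depended on single gradients, with 41 calls without LPS+ET LUL16 and 6 without LPS+ET LUL18, LPS+ET+KU LUL17 or LPS+ET+KU LUL18.

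**Figure D2:**
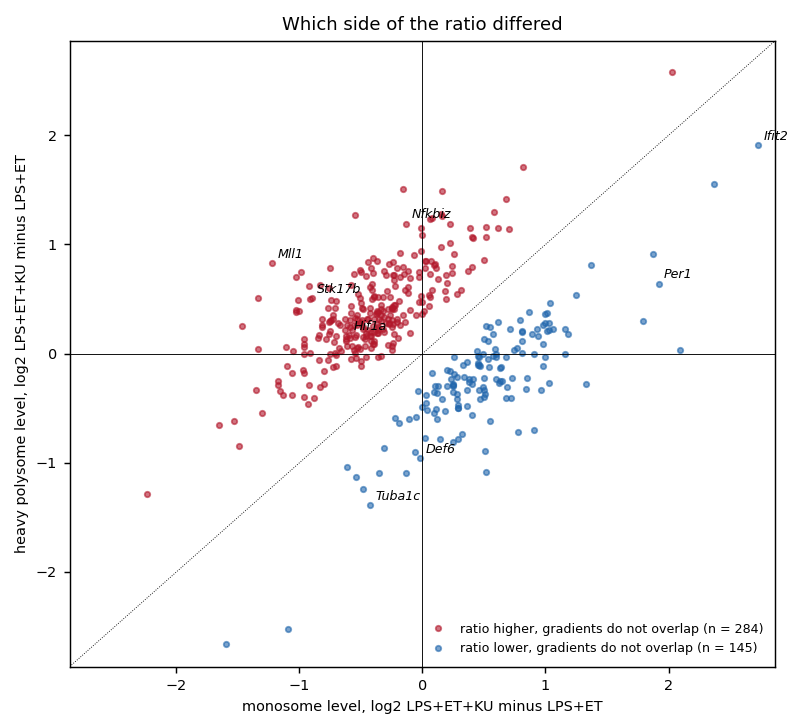
Difference of the monosome level (x axis) and of the heavy polysome level (y axis), both log2 LPS+ET+KU minus LPS+ET of CPM, for the 284 genes with higher and the 145 with lower non-overlapping ratios; the dotted diagonal marks equal differences on both sides, that is an equal ratio. Most higher genes lie at lower monosome and higher heavy levels, 201 of 284, which the choice of genes by the ratio partly builds in. Per1 and Ifit2 lie at higher levels on both sides.

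The mRNAs that the study followed in detail did not pass the test. Trp53, which encodes p53, had log2 ratios of 2.88, 2.10, 3.16 and 2.53 in LPS+ET and 2.84, 2.49, 2.01 and 2.52 with the inhibitor, against 1.34, 1.67, 1.39 and 1.74 in LPS. The etoposide-treated groups overlapped, with a difference of −0.20 ± 0.24 (adjusted p = 0.885), and both lay above every LPS gradient; the etoposide difference of 1.13 was called (adjusted p = 0.00896). The summed-count alternatives put the inhibitor difference of Trp53 at −0.69 to −0.81, also not called. Hif1a, the oxygen-regulated transcription factor, was non-overlapping, at 1.16, 1.38, 1.26 and 1.54 in LPS+ET and 1.85, 2.70, 1.67 and 2.21 with the inhibitor. Its difference of 0.77 ± 0.23 had an adjusted p of 0.360 and was 0.27 with summed counts. The p53 target and cell cycle inhibitor Cdkn1a was at 0.54 ± 0.39, the MHC class I heavy chain H2-K1 at −0.10 ± 0.23 and cyclin D2 (Ccnd2) at 0.45 ± 0.26. The poly(A)-binding protein Pabpc1, with negative ratios in all 12 gradients, was at −0.17 ± 0.24, and the stress granule proteins Tia1 and Tial1 at −0.47 ± 0.38 and 0.00 ± 0.30. Gadd45a had fewer counts than the minimum and was not tested.

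Functional lists are described by their median and by how many members were higher or lower; limma called no list member at 0.01, edgeR called Tuba1c, DESeq2 called Tuba1c, Tuba4a, Srsf2, Caprin1, Eif3b, Rpn1, Rpn2, Cct8 and Gadd45g, and the replicate block over the 8 gradients called mt-Nd2. A list has no test here. Each is to be read beside the values of all genes, a median of 0.02 with 4198 higher and 3802 lower, of which 3.55% were higher and 1.81% lower without overlap.

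The tubulins, whose α and β subunits build microtubules and whose γ subunits start them, had the lowest median of the lists, −0.64. All 12 tested members were lower with the inhibitor, 5 of them without overlap. The list median was 0.54, 0.65, 0.50 and 0.43 in the LPS+ET gradients and 0.16, −0.04, 0.04 and −0.30 in the LPS+ET+KU gradients, so the groups did not overlap, and it was 0.69, 0.72, 0.79 and 0.68 in the LPS gradients. Relative to the median of all genes it stayed between −0.85 and −0.54 in all 30 alternatives, which include each gradient left out in turn, other scalings, summed counts, edgeR and DESeq2. Some alternatives could not move this or any other list median, since they leave the difference of each gene unchanged. They were an LPS gradient left out, the 8 compared gradients alone, the replicate block with all pools and no variance trend. Cells regulate their tubulin mRNAs by the amount of free tubulin. The ribosome's newly made protein start, Met-Arg-Glu followed by Ile in β- and Cys in α-tubulins, is recognised together with free tubulin, and the mRNA is then degraded while it is being translated. That start is encoded by the capitals below, the first 4 codons of the coding sequence, which are shown with the 18 bases that follow because the α and β members share it in different spellings while the γ members do not; Tubb6 is not shown.
Tuba1a: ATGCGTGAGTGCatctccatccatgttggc
Tuba1b: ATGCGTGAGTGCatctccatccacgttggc
Tuba1c: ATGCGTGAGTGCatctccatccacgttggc
Tuba4a: ATGCGCGAGTGCatttcagtccatgtgggg
Tubb2a: ATGCGCGAGATCgtgcacatccaggcgggc
Tubb2b: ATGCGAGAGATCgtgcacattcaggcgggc
Tubb3: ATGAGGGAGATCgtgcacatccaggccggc
Tubb4b: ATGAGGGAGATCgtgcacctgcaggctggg
Tubb5: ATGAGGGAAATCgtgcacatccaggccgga
Tubg1: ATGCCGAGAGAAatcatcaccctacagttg
Tubg2: ATGCCCCGGGAGatcatcaccctgcagctg
The sequences were read 5′ to 3′ on the coding strand from the GRCm38 genome with GENCODE M21. The Tubb5 stretch is chr17:35838024-35838053 on the minus strand, Tubb2b is chr13:34130204-34130233 and Tubb4b chr2:25224561-25224590, both minus, and Tubg1 is chr11:101120194-101120223 on the plus strand. In the α-tubulins an intron splits this stretch, which runs from 99030422 to 99034120 on the plus strand of chromosome 15 in Tuba1c. Only 18 of 7581 tested coding starts (0.237%) encode Met-Arg-Glu, and 10 of them are tubulins, the 9 α and β members above and Tubb6. The other 8 had a median difference of 0.07, with 5 higher and 3 lower. The part of this regulation in the ratio differences was not tested.

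Tubb5 was the most abundant tubulin mRNA by counts, and its log2 ratio was 0.13, −0.60, −0.79 and −0.48 in LPS+ET and −0.91, −1.19, −1.48 and −1.20 with the inhibitor. All inhibitor-treated gradients were lower, and the difference was −0.76 ± 0.22 (adjusted p = 0.360). Tuba1c, the second by counts, had ratios of 1.65, 0.93, 1.25 and 1.52 in LPS+ET and 0.64, −0.26, 0.47 and 0.67 with the inhibitor. Its heavy level was 479 ± 150 CPM in LPS+ET and 182 ± 55.8 CPM with the inhibitor, and its monosome level 184 ± 26 and 137 ± 27 CPM. The ratio difference of −0.96 ± 0.23 had an adjusted p of 0.260 in limma, and the gene was called in edgeR (−1.35, adjusted p = 0.00756) and DESeq2 (−1.31, adjusted p = 3.65e-07). Tuba4a lay at 0.10, 0.09, 0.30 and 0.11 in LPS+ET and at −1.27, −0.90, −0.73 and −0.38 with the inhibitor. The first group was tightly grouped and the second wholly below it, with a difference of −0.97 ± 0.25 (adjusted p = 0.331). DESeq2 also called this gene (−1.1, adjusted p = 0.0021). Tuba1a (−0.79 ± 0.31) and Tubg2 (−0.72 ± 0.49) did not overlap between the groups either. Tubb3, at −1.35 ± 0.55, had few counts, and Tubb2b (−0.55 ± 0.26), Tubb2a (−0.47 ± 0.40), Tubb4b (−0.47 ± 0.23) and Tuba1b (−0.33 ± 0.38) overlapped. Tubb6 was at −0.36 ± 0.63. The γ members, which both lack the shared start, thus differed from each other, Tubg2 being lower without overlap and Tubg1 at −0.05 ± 0.22. The median tubulin was 0.34 lower in heavy fractions and 0.27 higher in monosomes on the log2 scale. Tubulin genes resemble each other in coding sequence, but reads were counted at poly(A) sites, which lie in the UTR for most members and beyond the annotated gene for Tuba1a, Tuba1b and Tubb4b. Members of the CCT chaperonin, which folds newly made tubulin and actin, were lower in 7 of 8 cases with a median of −0.25. Cct4 was at −0.48 ± 0.21 without overlap, Cct7 at −0.21 ± 0.20 and Cct6a at 0.02 ± 0.20, and the list median relative to all genes was −0.66 with summed counts.

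**Figure D3:**
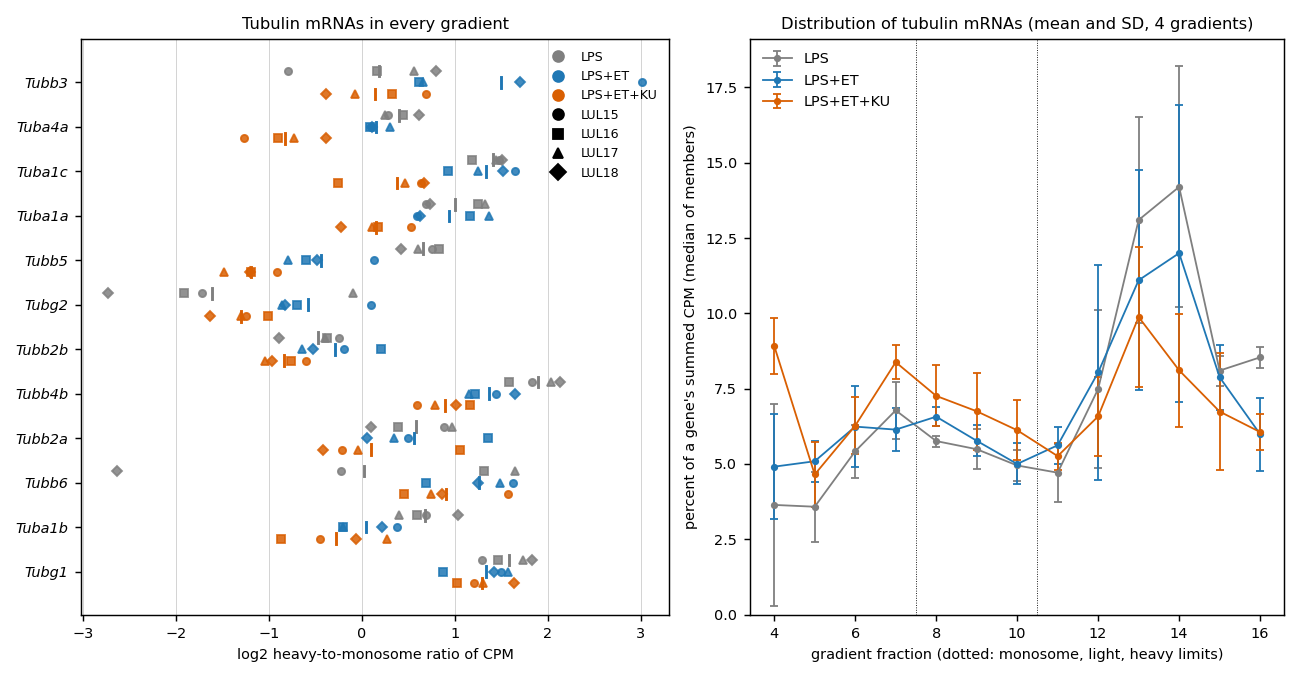
Left, log2 heavy-to-monosome ratio of CPM of each tubulin mRNA in every gradient, with symbols for the pools and ticks for the means. Right, share of a tubulin's summed CPM in each gradient fraction, as the median of the 12 members and then the mean and SD of 4 gradients. The LPS+ET+KU points lie to the left of the LPS+ET points in most members, without overlap in 5. In fraction 14 the mean share is 8.11% ± 1.88 with the inhibitor against 12% ± 4.93 in LPS+ET, within overlapping SDs. Among monosome fractions it is 8.92% ± 0.93 against 4.91% ± 1.74 in fraction 4 and 8.38% ± 0.56 against 6.14% ± 0.70 in fraction 7. It is 4.65% against 5.09% in fraction 5 and 6.27% against 6.24% in fraction 6.

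Energy metabolism contained the largest one-sided list. Of 70 tested nuclear-encoded subunits of the respiratory chain and ATP synthase, 62 were lower and 8 higher, with a median of −0.29, and 3 were lower without overlap (1.81% of all genes were). Those were Uqcrfs1, the Rieske protein of complex III, at −0.71 ± 0.28, and the complex I subunits Ndufb5 at −0.70 ± 0.21 and Ndufa10 at −0.46 ± 0.20. The smallest p belonged to Atp5j2, a subunit of ATP synthase, at −0.79 ± 0.22 (adjusted p = 0.360), and the most abundant members, Cox6c and Cox4i1, were at −0.26 ± 0.27 and −0.19 ± 0.20. The most different higher member was Uqcr11 of complex III at 0.88 ± 0.41. The list median was 0.36, 0.06, 0.63 and 0.82 in LPS+ET and 0.31, −0.38, 0.56 and 0.24 with the inhibitor. It was lower with the inhibitor in all 4 pools, although the groups overlapped. Relative to all genes it lay between −0.42 and −0.15 over the alternatives. Mitochondrial ribosomal proteins showed the same lean, 53 of 69 lower with a median of −0.23, and Mrpl45 at −0.34 ± 0.20, Mrpl12 at −0.33 ± 0.22, Mrps12 at −0.58 ± 0.22 and Mrps22 at 0.68 ± 0.22, but their median relative to all genes was −0.08 with summed counts. The mRNAs made inside mitochondria are not read by cytosolic ribosomes. Their list median was −2.08, −0.87, −2.96 and −2.92 in LPS+ET and −1.64, −0.47, −2.52 and −2.59 with the inhibitor, higher with the inhibitor in each pool, although the median difference of 0.14 fell below that of all genes in 5 alternatives, with mt-Nd2 at 1.27 ± 0.53, mt-Nd1 at 0.55 ± 0.45, mt-Nd4 at −0.09 ± 0.45 and mt-Nd6 at −0.21 ± 0.67. The mitochondrial aminoacyl-tRNA synthetases, which load amino acids for that second translation system, had a median of 0.38 (9 of 15 higher) that was 0.08 relative to all genes with summed counts; Tars2 was at 0.42 ± 0.28, Yars2 at 0.75 ± 0.41, Rars2 at −0.02 ± 0.34 and Lars2 at −0.80 ± 0.54.

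Lists of the cytosolic translation machinery had medians between −0.17 and 0.04 in the main fit. The 57 ribosomal proteins, whose short mRNAs begin with a terminal oligopyrimidine (TOP) tract under mTOR control, had list medians of −2.33 to −2.92 in LPS+ET and −2.47 to −3.10 with the inhibitor, far below those of all genes. The median difference was −0.11 with 44 lower and 13 higher, and relative to all genes it turned positive in 2 of the 30 alternatives. Rps20 and Rplp1 were at −0.12 ± 0.26 and −0.10 ± 0.26, Rpl41 at 1.13 ± 0.57 and Rpl31 at −0.47 ± 0.24. The 15 other TOP mRNAs had a median of −0.17, with the elongation factors Eef2 and Eef1b2 at −0.37 ± 0.25 and −0.11 ± 0.23, Eif3e at 0.20 ± 0.35 and the histone chaperone Nap1l1 at −0.55 ± 0.23. Among 36 initiation factors the median was −0.10. Eif5a and Eif1 were at 0.16 ± 0.21 and 0.05 ± 0.19, the scaffold Eif4g1 at 0.65 ± 0.21 and Eif3i at −0.60 ± 0.20 without overlap. Cytosolic aminoacyl-tRNA synthetases had a median of 0.04 (Nars −0.32 ± 0.18, Vars −0.53 ± 0.20, Iars 0.72 ± 0.21) and the 42 genes of ribosome biogenesis one of −0.09 (Nolc1 0.20 ± 0.18, Ncl −0.32 ± 0.25, Nop58 0.55 ± 0.28, Polr1b −0.83 ± 0.36).

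**Figure D4:**
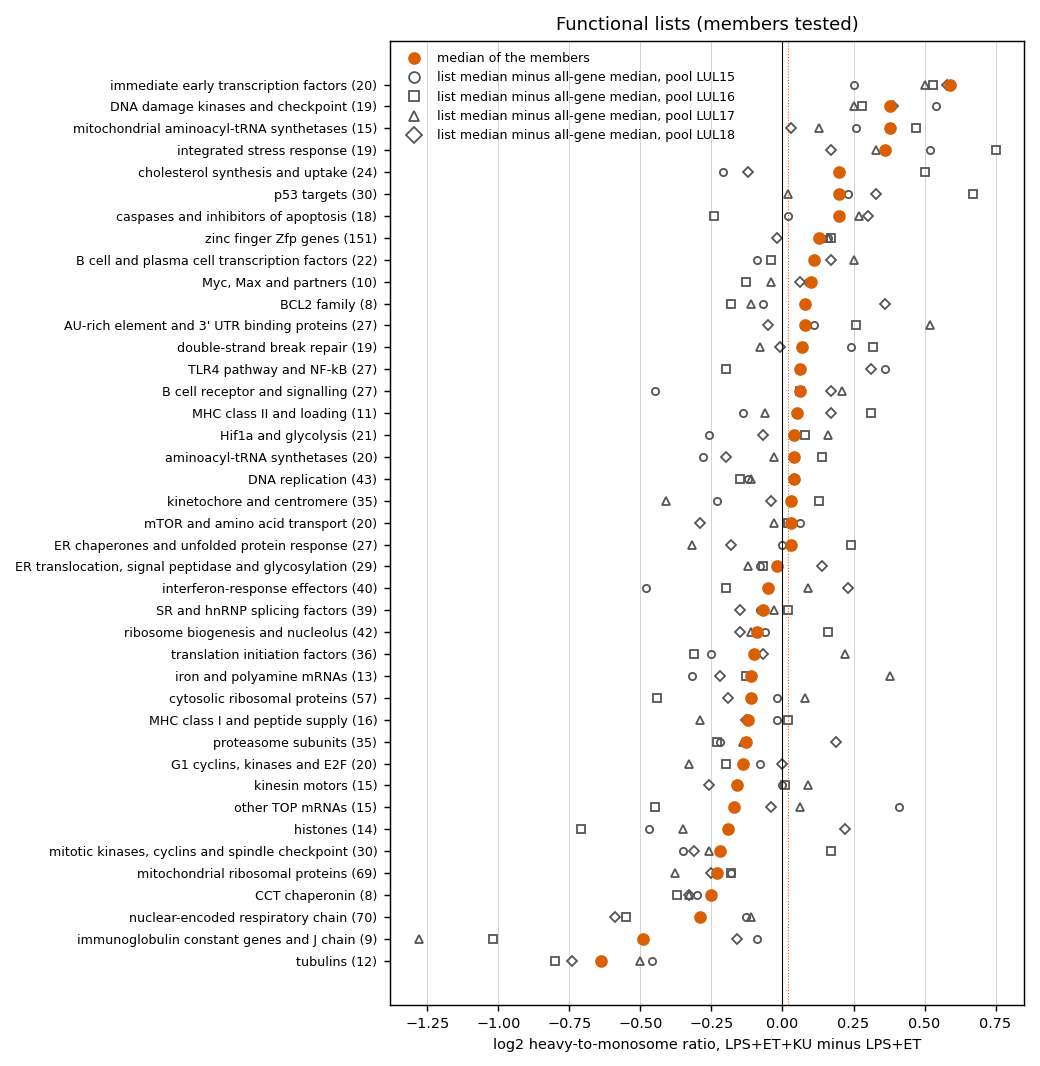
Difference of the log2 heavy-to-monosome ratio, LPS+ET+KU minus LPS+ET, for each functional list with 8 or more tested members (number in brackets). Filled points are the median over the members, open symbols the list median minus the median of all genes in each pool, and the dotted line the median of all genes, 0.02. The tubulins lie lowest at −0.64 and the immediate early genes highest at 0.59, with all 4 pools on the same side of 0 in both.

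Immediate early genes, transcription factors and phosphatases that are induced within minutes of a stimulus and whose mRNAs are short-lived, had the highest median, 0.59. Of 20 tested, 18 were higher and 2 lower, 4 of them higher without overlap. The list median was −0.01, −0.10, 0.09 and 0.02 in LPS+ET and 0.32, 0.54, 0.63 and 0.61 with the inhibitor, again without overlap between the groups, and 0.38, 0.12, 0.82 and 0.56 in LPS. Dusp5, a nuclear phosphatase of ERK, had log2 ratios of −0.03, −0.10, 0.04 and −0.40 in LPS+ET and 0.75, 0.86, 0.90 and 1.64 with the inhibitor. Each inhibitor-treated gradient was higher, and the difference was 1.16 ± 0.38 (adjusted p = 0.466). The related phosphatase Dusp1 differed by 1.22 ± 0.41 and the nuclear receptor Nr4a1 by 0.67 ± 0.22, both without overlap and with the same adjusted p of 0.466. The AP-1 subunit Junb, the most abundant member, was at 0.16 ± 0.28, Ier5 at 0.59 ± 0.21 and Jund at −0.18 ± 0.24. The list was higher in heavy fractions by a median of 0.72 and in monosomes by 0.19. Relative to all genes its median was 0.57, and between 0.26 and 0.61 over the alternatives, the lowest value with summed counts.

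The integrated stress response, in which phosphorylated eIF2α lowers initiation while Atf4 and its targets are made, had a median of 0.36 with 15 of 19 higher, 3 without overlap. Ddit4, an inhibitor of mTOR that p53 induces too, had ratios of 0.65, 0.64, 0.86 and 1.07 in LPS+ET and 1.28, 1.89, 1.38 and 1.89 with the inhibitor. The groups did not overlap, and the difference of 0.81 ± 0.21 had an adjusted p of 0.331. The amino acid transporter Slc7a5 was at 0.54 ± 0.18 and asparagine synthetase (Asns) at 0.36 ± 0.19, both without overlap, Atf4 itself at 0.45 ± 0.24 and the serine-glycine enzyme Shmt2 at −0.34 ± 0.19. Here both sides were higher with the inhibitor, by medians of 0.74 in heavy fractions and 0.61 in monosomes. Relative to all genes the median stayed between 0.17 and 0.45. The wider mTOR and amino acid transport list was at 0.03, with Slc3a2 at 0.48 ± 0.19 and the lysosomal anchor Lamtor1 at −0.49 ± 0.23. Genes of cholesterol synthesis and uptake had a median of 0.20 with 20 of 24 higher (Cyp51 0.19 ± 0.19, Fdps 0.07 ± 0.20, Tm7sf2 −0.71 ± 0.31), which relative to all genes was −0.03 with summed counts.

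Kinases and adaptors of the DNA damage response, the pathway that the inhibitor targets, had a median of 0.38 with 16 of 19 higher and 2 without overlap. Their list median was 1.14, 1.26, 1.06 and 1.33 in LPS+ET, 1.76, 1.65, 1.35 and 1.73 with the inhibitor and 1.35, 1.37, 1.63 and 1.68 in LPS. The etoposide groups did not overlap. Atm itself had ratios of 1.94, 0.50, 1.68 and 1.70 in LPS+ET and 2.35, 2.71, 2.15 and 1.96 with the inhibitor, and the low gradient was LPS+ET LUL16. The difference for Atm was 0.84 ± 0.34 (adjusted p = 0.577), and 0.06 with summed counts. Rad1, a subunit of the checkpoint clamp, was at 0.64 ± 0.40 without overlap, the break adaptor Mdc1 at 1.20 ± 0.50, Tipin at 0.35 ± 0.22 and the ubiquitin ligase Rnf8 at −0.22 ± 0.20. Relative to all genes the list median stayed between 0.15 and 0.40, the lowest with edgeR. The 30 tested p53 targets had a median of 0.20 with 23 higher, 4 without overlap. Relative to all genes this median was 0.17, and between 0.09 with summed counts and 0.30 without LPS+ET LUL17. Besides Ddit4 and Gadd45b these were Gadd45g, a stress sensor, at 0.65 ± 0.23, which DESeq2 called (0.94, adjusted p = 0.00602), and the death receptor Fas at 0.64 ± 0.46. The proapoptotic Bax was at −0.22 ± 0.28 and the spindle protein Ckap2 at −0.52 ± 0.50. The p53 targets were lower on both sides, by medians of 0.34 in heavy fractions and 0.46 in monosomes on the log2 scale, so their ratio stood higher while their levels stood lower. Double-strand break repair genes had a median of 0.07 (Parp1 −0.08 ± 0.26, Fancd2 0.36 ± 0.27, Xrcc6 0.98 ± 0.54, Rad52 −0.28 ± 0.40).

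Cell cycle lists leaned lower or stood near all genes, and those of DNA replication, kinetochores, kinesins, Myc partners and histones changed sides of the all-gene median in at least 1 alternative. Mitotic kinases, cyclins and checkpoint genes were lower in 23 of 30 with a median of −0.22, which relative to all genes stayed between −0.38 and −0.16. Separase (Espl1), the protease that opens sister chromatids, was at −1.06 ± 0.28 (adjusted p = 0.331), its inhibitor securin (Pttg1) at −0.17 ± 0.21, Cdk1 at 0.27 ± 0.29 and Ttk at 0.70 ± 0.37. Kinetochore genes had a median of 0.03 (Pmf1 0.03 ± 0.19, Cenpa −0.31 ± 0.25, Casc5 0.78 ± 0.31, Cenpp −1.07 ± 0.38), kinesins one of −0.16 (Kif15 −0.53 ± 0.27, Kif21b 0.39 ± 0.33, Kif3b 1.16 ± 0.62) and DNA replication genes one of 0.04 (Top2a, the target of etoposide, −0.25 ± 0.22, Dut −0.15 ± 0.20, Rrm2 0.42 ± 0.22, Rfc3 −0.64 ± 0.25). G1 regulators were at −0.14 (Cdk2 −0.14 ± 0.23, Cdkn2c 0.91 ± 0.31, Rbl1 −0.41 ± 0.33) and the Myc and Max network at 0.10 (Max −0.07 ± 0.28, Mxi1 0.27 ± 0.33, Mga 1.04 ± 0.39, Mlx −0.38 ± 0.37). Of 61 histone genes 14 were tested, with a median of −0.19 that relative to all genes was 0.06 with summed counts. The replication-dependent Hist1h2ae, whose normal mRNA has no poly(A) tail, was at −2.06 ± 0.59 without overlap, Hist1h1c at 0.90 ± 0.45 and the polyadenylated variants H2afv and H3f3b at −0.19 ± 0.28 and −0.18 ± 0.25.

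In the lists of B cell function, immunoglobulin constant genes and the J chain were lower in 9 of 9 with a median of −0.49. The J chain (Igj), which joins IgM pentamers, was at −0.97 ± 0.31 (adjusted p = 0.435), Ighm at −0.49 ± 0.30 and Igkc at −0.19 ± 0.27. Their list median was 1.77, 1.76, 3.33 and 2.50 in LPS+ET and 1.76, 0.85, 2.09 and 2.35 with the inhibitor. These groups overlapped, and relative to all genes the median was −0.15 without LPS+ET+KU LUL16. B cell transcription factors were at 0.11, with Foxp1 at 0.79 ± 0.25 without overlap, Pou2af1 at 0.18 ± 0.23, Sfpi1 at −0.21 ± 0.23 and Bcl11a at −0.55 ± 0.32. B cell receptor genes were at 0.06. Malt1, the paracaspase that links the receptor to NF-κB, was at 1.30 ± 0.37 without overlap and 0.52 with summed counts, Cd79b at −0.05 ± 0.17 and Cd79a at −0.72 ± 0.37. Among B cell markers, 7 of 9 were lower (Cd37 −0.26 ± 0.19, Cd22 0.48 ± 0.27). The TLR4 and NF-κB list was at 0.06 (Nfkbia 0.35 ± 0.18, Nfkbib −0.21 ± 0.20, Cd180 −0.74 ± 0.47). Interferon-response effectors were higher on both sides, by medians of 0.74 and 0.59, with a ratio difference of −0.05. Stat2 and Irf9 were at 0.10 ± 0.25 and −0.24 ± 0.19, Mx2 at 0.97 ± 0.32 and Ifit2 at −0.83 ± 0.31, the last pair without overlap. MHC class II genes were at 0.05 (H2-Eb1 −0.31 ± 0.20, H2-Ab1 0.14 ± 0.21, Ciita 0.48 ± 0.32, H2-DMa −0.47 ± 0.26) and class I genes at −0.12, with their transactivator Nlrc5 at 1.14 ± 0.36 without overlap, Tapbp at −0.19 ± 0.19 and Psmb9 at −0.31 ± 0.25.

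The remaining lists had medians between −0.20 and 0.20. Except for the proteasome, caspase, Zfp and MHC class I lists, their side of the all-gene median depended on the processing. The processing was not varied for the pseudogenes. Proteasome subunits were lower in 24 of 35 with a median of −0.13 (Psmb8 −0.10 ± 0.18, Psmb1 −0.40 ± 0.18, Psmd5 0.67 ± 0.31). Chaperones of the endoplasmic reticulum were at 0.03 (Manf −0.25 ± 0.23, Calr −0.16 ± 0.20, Herpud1 0.39 ± 0.17, Sdf2l1 −0.36 ± 0.27) and its translocation and glycosylation machinery at −0.02 (Spcs2 0.20 ± 0.20, Dad1 −0.51 ± 0.28, Stt3b 0.22 ± 0.22, Ssr4 −0.53 ± 0.21). SR and hnRNP splicing factors were at −0.07 (Hnrnpc −0.07 ± 0.19, U2af2 0.04 ± 0.17, Hnrnpab 0.45 ± 0.21) and 3′ UTR-binding proteins at 0.08 (Khsrp −0.25 ± 0.23, Zfp36 0.09 ± 0.18, Caprin1 −0.79 ± 0.42). In glycolysis the median was 0.04, with pyruvate kinase (Pkm) at −0.65 ± 0.19 without overlap and aldolase (Aldoa) at −0.02 ± 0.22. Iron and polyamine mRNAs were at −0.11 (Fth1 −0.28 ± 0.33, Srm −0.14 ± 0.20, Azin1 0.67 ± 0.30, Slc11a2 −0.62 ± 0.44), the BCL2 family at 0.08 (Mcl1 −0.02 ± 0.20, Bcl2 0.11 ± 0.29, Bcl2l13 0.33 ± 0.39, Bid −0.37 ± 0.33) and caspases at 0.20 (Htra2 −0.05 ± 0.20, Casp8 0.50 ± 0.23, Diablo −0.58 ± 0.42). Zinc finger Zfp genes, mostly low-abundance transcription factors, were higher in 99 of 151 with a median of 0.13 (Zfp207 −0.27 ± 0.19, Zfp287 1.07 ± 0.28). Of 197 tested pseudogenes 139 were lower, with a median of −0.20, and their reads cannot be told apart with certainty from those of their parent genes.

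Coding length went with the difference, but not under every way of counting. For the 7581 genes with a coding length, the median difference was −0.14 under 600 bases, −0.02 from 600 to under 1000, 0.07 up to under 2000, 0.12 up to under 4000 and 0.32 at 4000 or more. Of the 496 longest, 355 were higher and 141 lower, and 45 were higher without overlap against 5 lower. The Spearman correlation over genes, which share libraries, was 0.236 as a description. In a gradient, the longest class exceeded the shortest by 1.52, 1.21, 1.21 and 1.38 in LPS+ET, 1.62, 2.14, 1.49 and 1.53 with the inhibitor and 1.70, 2.12, 1.85 and 1.64 in LPS. The span was wider with the inhibitor in all 4 pools and most so in LUL16. Its means were 1.33 ± 0.15 in LPS+ET and 1.70 ± 0.30 with the inhibitor, or 1.37 ± 0.16 and 1.55 ± 0.06 without LUL16. With counts summed over fractions the class medians were 0.06, 0.09, −0.04, −0.04 and 0.01 from short to long, and with libraries under 100000 counts left out they were 0.09, 0.13, 0.10, 0.05 and 0.12, so the order was absent in both. The tubulin, respiratory chain, immediate early and DNA damage lists kept medians of −0.70, −0.19, 0.54 and 0.33 relative to all genes after the median of each length class was taken off.

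**Figure D5:**
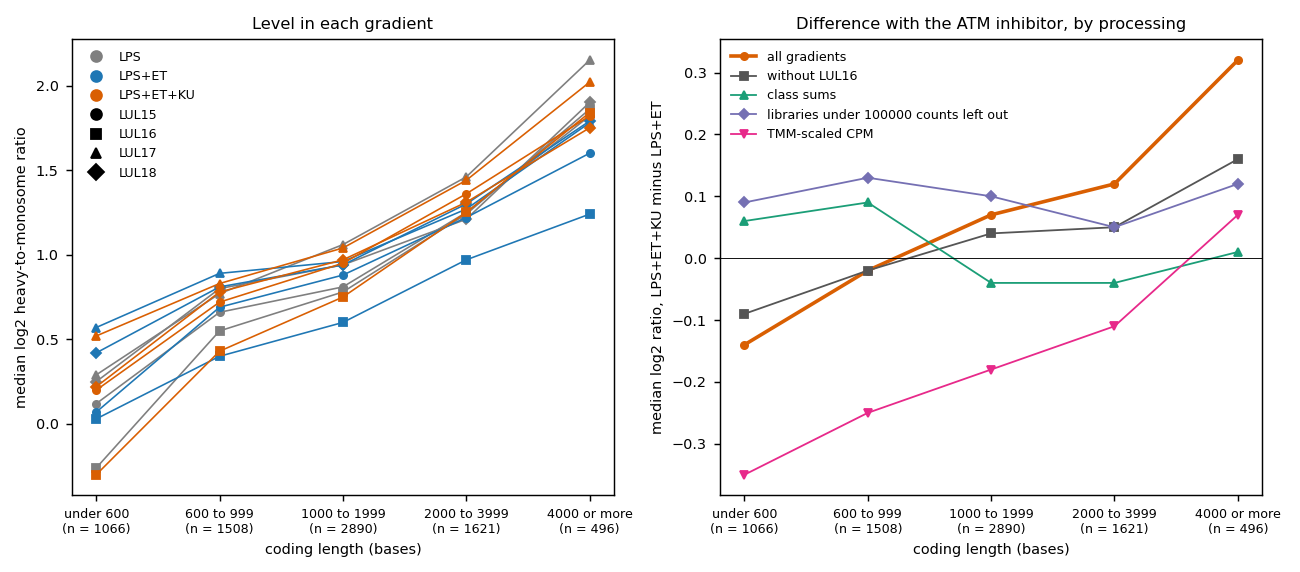
Left, median log2 heavy-to-monosome ratio (y axis) of the genes in 5 classes of coding length (x axis, bases) in each of 12 gradients. Right, median difference LPS+ET+KU minus LPS+ET per class, for all gradients and 4 other ways of processing. Ratios rise with length in every gradient, whereas the difference rises from −0.14 to 0.32 with all gradients but not with class sums or with libraries under 100000 counts left out.

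The etoposide comparison, LPS+ET with LPS, shares the LPS+ET gradients, so opposite signs in the 2 comparisons are partly built in and its values are given only side by side. As the times are given, LPS+ET cells had the 4 h with etoposide in addition to the 48 h of the LPS cells. The longer culture cannot be told apart from etoposide in this comparison. It called 133 genes (1.66%), 47 higher and 86 lower, or 314 with the replicate block, and 387 genes (4.84%) were higher and 591 (7.39%) lower without overlap. For Stk17b the etoposide difference was −1.71 (adjusted p = 0.00194) beside 1.41 with the inhibitor, for Gm5423 it was −1.44 (adjusted p = 0.00473) beside 1.19, for Def6 it was 1.20 (adjusted p = 0.00815) beside −0.94 and for Foxp1 it was −1.46 (adjusted p = 0.00275) beside 0.79. The LPS and LPS+ET+KU gradients overlapped in Stk17b, at 0.84 to 2.22 and 0.80 to 1.28, and in Gm5423 and Def6, but not in Foxp1, at 1.00 to 1.74 and 0.44 to 0.86. Tuba1c was at −0.07 with etoposide and Nfkbiz at 0.16, while Tubb5 was at −1.09 (adjusted p = 0.00724) and then lower by a further 0.76. List medians for etoposide were −0.06 for tubulins, 0.13 for the respiratory chain, −0.45 for immediate early genes, −0.39 for DNA damage kinases, −0.11 for the integrated stress response and 1.37 for immunoglobulin genes.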

How the data were processed

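PolyRibo-3′ RNA-seq data of 12 sucrose gradients were taken as the deposited table of read counts per gene and library, unnormalised. The authors removed duplicate reads with random barcode bases, mapped reads to GRCm38/mm10 and summed poly(A) site counts per gene; the submitters' processing notes name TopHat2 2.0.12, HTSeq and DESeq2 1.6.3. Of 157 libraries, 79 columns matched 1 labelled sample and 78 only a treatment and fraction; gradients were assembled from the treatment and pool tag in the column names, and 0 columns were left unmapped; 1 LPS library beyond fraction 16 entered no ratio. No 2 libraries held identical counts.

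Counts were divided by library totals, averaged per fraction class and compared as log2 ratios (pseudocount 0.5 CPM, 1200 or more counts) with limma 3.58.1 (trended variance, Benjamini-Hochberg, two-sided, 0.01, R 4.3.3) over all 12 gradients. Alternatives used edgeR 4.0.16 and DESeq2 1.42.0 interaction tests, other scalings, fractions, filters and pseudocounts, and each gradient left out. The limma, blocked limma, edgeR and DESeq2 fits were tried on simulated data that held no pool effect. Counting error is largest in shallow libraries, of which LPS+ET LUL16 had most. Deviations from group means correlated between gradients of the same pool in all 12 pairs for heavy levels (0.265 to 0.809) and monosome levels (0.206 to 0.684) and in 7 of 12 for ratios (4 of 4 between LPS+ET and LPS+ET+KU), so the pools pair the gradients; the main tests were unblocked, and the blocked fit is given beside results whose call it changes.

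Genes named were those followed by the study, the 10 non-overlapping genes with the smallest p in each direction (called genes first), and in each list the 2 most abundant members and the smallest p in each direction; Asns, Cybb, Gm11826, Serpinf1, Dusp1, Nr4a1, Mdc1, Rad1, Fas, Gadd45b, Gadd45g, Uqcrfs1, Ndufb5, Ndufa10, the other tubulins and the genes called by level or light ratio were named after their values were seen, and some genes that the rule names are not reported here. Members, lists and tests were chosen with earlier results of these data known. Columns of the authors' own comparisons were not used. Coding sequences came from GENCODE M21 for GRCm38, which held 19264 of 19600 genes.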

Additional observations from a re-analysis of the deposited data

Results flagged for a closer look

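In 23 of 460 groups of 4 gradients (5%), 1 gradient stood apart, its gap to the nearest other divided by the range being above Dixon's critical value for 4 values; chance alone marks about 1 in 20 such groups. Of the 23, 10 were LPS+ET+KU LUL16 and 6 LPS+ET LUL16, the other 7 being spread over 4 gradients. All values are log2 heavy-to-monosome ratios, each followed by the range of the other gradients of its group.

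In LPS+ET LUL16, Yars2 was at −1.34 (0.43 to 0.69), mt-Nd4 at −0.44 (−2.27 to −2.14), Cct6a at 1.01 (1.48 to 1.55), Pou2af1 at 1.19 (1.75 to 1.77) and Nfkbib at 0.86 (1.46 to 1.5), and the lincRNA median was −0.88 (−1.66 to −1.58). In LPS+ET LUL17, Tuba4a was at 0.3 (0.09 to 0.11) and the median of the TLR4 and NF-κB list at 1.12 (0.72 to 0.75).

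In LPS+ET+KU LUL16, Tia1 was at −1.56 (−0.2 to 0.03), Eif5a at 1.04 (1.75 to 1.86), Cox4i1 at −1.19 (−0.7 to −0.64), Azin1 at 1.69 (2.24 to 2.26), Casp8 at 2.02 (1.38 to 1.45) and Cd22 at 1.19 (0.44 to 0.55). List medians there were −0.07 for mitochondrial ribosomal proteins (0.3 to 0.33), 1.61 for chaperones of the endoplasmic reticulum (1.79 to 1.81), 1.18 for MHC class I (1.44 to 1.49) and 0.39 for the erythroid markers (1.38 to 1.41), which had 1 tested member. In LPS+ET+KU LUL15, Helz was at 2.88 (2.17 to 2.26), the B cell marker median at 0.56 (0.86 to 0.9) and the T cell marker median at 0.54 (−0.28 to −0.25). Espl1 was at 2.45 (1.7 to 1.81) in LPS+ET+KU LUL17 and Dusp5 at 1.64 (0.75 to 0.9) in LPS+ET+KU LUL18.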

How the results depend on the processing

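Of the ratio calls at 0.01, 0 in limma, the count became 1 with counts summed over fraction classes (class sums), 1 with fractions 11 to 13 as heavy, both Gm11826, 1 with the threshold at 0.05, 3 in edgeR, 36 in DESeq2, and 0 to 1 with a gradient left out. With the replicate block, the ratio had 1 call, the heavy level 150, the monosome level 46, the light-to-monosome ratio 10 and the etoposide ratio 314; the block over 8 gradients gave 6 (Mll1, Stk17b, Fcrla, Snd1, mt-Nd2 and mt-Tw). Without a gradient, heavy-level calls ran from 6 to 41 and monosome-level calls from 1 to 4. TMM put the difference of the gradient medians at −0.17. The inhibitor difference of the longest coding length class minus that of the shortest was 0.46 in the main fit. It was −0.05 with class sums, 0.03 without libraries under 100000 counts, −0.03 in edgeR and −0.04 in DESeq2. The cause was not tested for any of these or the following values. The depth of single fractions limits all of them, since 12 of 120 monosome and heavy libraries held under 100000 counts.

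List medians below are relative to all genes, and leaving out an LPS gradient cannot move them. With class sums, edgeR and DESeq2 they were −0.17, −0.19 and −0.2 for aminoacyl-tRNA synthetases, 0.08, 0.06 and 0.07 for the mitochondrial ones, −0.08, −0.09 and −0.08 for mitochondrial ribosomal proteins, −0.66, −0.66 and −0.67 for CCT, −0.24, −0.24 and −0.26 for DNA replication, 0.06, 0.04 and 0.04 for histones, −0.2, −0.18 and −0.19 for the B cell receptor, −0.28, −0.29 and −0.29 for SR and hnRNP factors, 0.12, 0.11 and 0.11 for iron and polyamines, 0.02, 0.02 and 0.02 for caspases, 0.26, 0.29 and 0.28 for immediate early genes and 0.18, 0.19 and 0.2 for Zfp genes. Kinesins were at −0.35 with class sums and −0.36 in DESeq2, and the BCL2 family at 0.27 in both. Without libraries under 100000 counts, the cytosolic and mitochondrial synthetases were at −0.17 and 0.07, mitochondrial ribosomal proteins at −0.11, CCT at −0.51, DNA replication at −0.2, histones at 0.02 and immediate early genes at 0.33. With fractions 11 to 13 as heavy, the synthetases were at 0.14 and 0.18, mitochondrial ribosomal proteins at −0.35, kinesins at 0.26, B cell transcription factors at 0.25 and immediate early genes at 0.28. With fractions 12 to 16 over 4 to 6, mitochondrial ribosomal proteins were at −0.15, as with coding length taken off, and mTOR genes at 0.15. With a higher count minimum, mitochondrial synthetases were at 0.2, kinesins at 0.39, immediate early genes at 0.39 and myeloid markers at 0.5, which were at 0.26 with no count filter. The replicate block without both LUL16 gradients gave −0.13 for kinetochores and 0.4 for immediate early genes. With a gradient left out, ranges were −0.11 to 0.08 and 0.15 to 0.36 for the synthetases, −0.18 to 0.01 for translocation in the endoplasmic reticulum, −0.28 to 0.04 for kinesins, −0.03 to 0.19 for B cell transcription factors and 0.4 to 0.61 for immediate early genes.

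A change of sign is listed only for named genes whose main difference was at least as large as its SE. Genes with smaller differences also changed sign and are not listed, such as Rps20 (−0.3 to 0.28 over the alternatives) and Junb (−0.24 to 0.4). The listed genes, none of them called, were as follows. Class sums put Eif4g1 at −0.01, Nolc1 at −0.09, Stt3b at −0.06, Xrcc6 at −0.01, Ttk at −0.06, Kif21b at −0.18, Nfkbib at 0.03, Bid at 0.18 and Casp8 at −0.01. In edgeR, Eif4g1 was at −0.12, Yars2 at −0.03, Nolc1 at −0.2, Psmd5 at −0.01, Stt3b at −0.18, Atm at −0.05, Fancd2 at −0.07, Xrcc6 at −0.23, Rrm2 at −0.1, Ttk at −0.21, Kif21b at −0.31, Bid at 0.09 and Casp8 at −0.12. In DESeq2, Eif4g1 was at −0.07, Nolc1 at −0.15, Stt3b at −0.13, Atm at −0.02, Fancd2 at −0.02, Xrcc6 at −0.15, Rrm2 at −0.05, Ttk at −0.17, Kif21b at −0.29, Bid at 0.15 and Casp8 at −0.07. TMM put Nolc1 at −0.05 and Stt3b at −0.07. Fractions 11 to 13 put Eef2 at 0.02, Vars at 0.25, mt-Nd1 at −0.02, Shmt2 at 0.09, Top2a at 0.22, Espl1 at 0.25, Kif15 at 0.1, Ighm at 0.4, Khsrp at 0.33 and Pkm at 0.07, and fractions 12 to 16 over 4 to 6 put Manf at 0.02. Without libraries under 100000 counts, Tia1 was at 0, Nolc1 at −0.05, Cenpa at 0.16, Psmb9 at 0.03 and Bid at 0.33, and the replicate block without both LUL16 gradients gave 0.06 for Tia1 and 0.01 for Cenpa. The block over 8 gradients, the block without both LUL16 gradients, the block for the etoposide ratio and for the gradient medians, the coding length adjustment, the coding length span and the recounts of non-overlapping genes were chosen after seeing the data.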
